A study of Mus musculus with 4 samples.

Results

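The MEF2 factor family is the set of 4 mouse genes Mef2a, Mef2b, Mef2c and Mef2d, out of 21631 protein-coding genes (autosomes and X). They were chosen by name and by no cut on a measured value, but with earlier results of these data known. Every Deaf1 ChIP-seq peak inside the RefSeq span of a member, or within 5 kb of it, was taken. Deaf1 is a DNA-binding transcription factor with a SAND domain, and the cells were C2C12, a mouse myoblast line that forms myotubes in culture. Myocytes is the cell type in the sample labels, but the series' text has myoblasts after differentiation, and neither names a treatment or a genetic change. Formaldehyde (1%) fixed the cells, an enzymatic kit cut the chromatin, and an anti-Deaf1 antibody pulled it down in 2 replicates. The other 2 samples are input chromatin and were not used here, since the analysis rests on the peak lists of the ChIP samples.

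MEF2 proteins are MADS-box transcription factors that bind an A/T-rich element, the MEF2 box, as dimers. In skeletal muscle they act together with the myogenic factors of the Myod1 family to switch on contractile, metabolic and signalling genes. Class IIa histone deacetylases hold them in a repressed state, and calcium-dependent and stress-activated kinases release them. Mef2a, Mef2c and Mef2d are known for their parts in myogenesis, and Mef2b is best known from B cells of the germinal centre.

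Deaf1 signal was found in both replicates at 3 of the 4 genes, where 63.6% of all protein-coding genes had such a shared peak. Mef2a and Mef2d each carried a strong peak across the RefSeq start of transcription. At Mef2d it was broad in both replicates, while at Mef2a it was broad in replicate 1 and replicate 2 had 2 narrower peaks there. Mef2b carried its strong peaks inside the gene and near its finish, and had only a weak peak of 1 replicate at its start. Mef2c, the member with the longest span, had 2 weak peaks of replicate 1 beside its second start and none in replicate 2.

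The letters at these starts are shown because the peaks of Mef2a and Mef2d lie across them, and because the start peaks of Mef2b and Mef2c were listed in replicate 1 only. Each line runs 5′ to 3′ on the gene's own strand, from 250 bases before the start to 30 bases from it, in RefSeq sequence of GRCm38.p6, the assembly behind mm10. Capitals mark TTCG or its reverse complement CGAA, the half-site known for Deaf1, and in Mef2a also a match to the MEF2 box. The windows are chr7:67372829-67373108 on the minus strand for Mef2a and, on the plus strand, chr3:88142122-88142401 for Mef2d, chr8:70152511-70152790 for Mef2b and chr13:83523406-83523685 for the second start of Mef2c.
Mef2a: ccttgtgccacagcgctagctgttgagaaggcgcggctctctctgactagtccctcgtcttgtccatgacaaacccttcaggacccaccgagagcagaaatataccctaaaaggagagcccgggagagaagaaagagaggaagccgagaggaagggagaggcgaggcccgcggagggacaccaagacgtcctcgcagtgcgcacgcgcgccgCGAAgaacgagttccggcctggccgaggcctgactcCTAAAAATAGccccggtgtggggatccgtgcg
Mef2d: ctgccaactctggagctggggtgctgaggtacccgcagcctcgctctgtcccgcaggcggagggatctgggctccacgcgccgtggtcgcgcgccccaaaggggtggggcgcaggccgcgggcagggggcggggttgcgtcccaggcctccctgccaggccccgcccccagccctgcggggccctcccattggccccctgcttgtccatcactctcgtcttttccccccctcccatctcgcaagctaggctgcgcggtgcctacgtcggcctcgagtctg
Mef2b: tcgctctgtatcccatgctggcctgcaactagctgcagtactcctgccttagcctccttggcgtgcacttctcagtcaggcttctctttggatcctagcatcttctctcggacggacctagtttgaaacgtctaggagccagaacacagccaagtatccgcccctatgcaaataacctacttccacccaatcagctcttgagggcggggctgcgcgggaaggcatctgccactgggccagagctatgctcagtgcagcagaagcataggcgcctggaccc
Mef2c, start 2: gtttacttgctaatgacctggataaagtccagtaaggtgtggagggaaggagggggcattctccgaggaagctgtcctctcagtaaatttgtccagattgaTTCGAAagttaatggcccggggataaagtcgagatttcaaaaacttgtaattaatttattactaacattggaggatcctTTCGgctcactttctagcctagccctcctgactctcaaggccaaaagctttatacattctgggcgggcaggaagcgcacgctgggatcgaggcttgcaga
The half-site TTCG, counted on both strands, occurred 1 time at Mef2a, 0 times at Mef2d, 0 times at Mef2b and 3 times at the second Mef2c start, where 2 of the matches overlap in ttcgaa. The replicate 1 peak by that start begins at 83523645, near the end of the window, so these 3 matches lie upstream of it and outside it. No summit fell in the printed windows of Mef2d and Mef2c. Of 21045 promoter windows of the same length at protein-coding genes, 47.1% held it. The E-box CANNTG, read by myogenic factors, occurred 0 times at Mef2a and Mef2d and 1 time at Mef2b, against 66.8% of all windows with at least 1. A match to the MEF2 box, CTAAAAATAG, began 2 bases before the Mef2a start and ran across it, and 2.56% of all windows held such a match. The Mef2a and Mef2d windows each held 24 CpG pairs and the Mef2b window 10, against a median of 12 over all windows. The second Mef2c start had 9 CpG pairs and the first had 1. A match is a description of letters and not a binding site.

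The peaks are compared below by fold enrichment, the ratio of fragments at the summit to the local background with 1 added to each, as the authors' peak caller gave it. Each list was called on its own replicate, and q is the caller's adjusted p-value for that peak alone. Replicate 1 had 65606 peaks with a median fold of 6.07, and replicate 2 had 26503 with a median of 8.34. In replicate 1, 35.0% of peaks met a replicate 2 peak (1 bp or more), and in replicate 2, 93.9% met one of replicate 1. An overlapping block is called a shared region, and there were 22880. Read depth is not given in the lists, so the number of fragments at each summit (the pileup) was recovered from fold and p. Its exact Poisson 95% interval covers counting error only. The fragment counts were not scaled to a common depth, so those of the 2 replicates are not on 1 scale. No peak list of input or control IgG was analysed here, so signal common to open promoters and binding by Deaf1 cannot be told apart. With 1 condition and 2 replicates there was no contrast to test, and the values are descriptions.

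Across the 4 genes there were 21 peaks in replicate 1, 10 in replicate 2 and 9 shared regions. A shared region was present at 3 of 4 members, against 63.6% of all protein-coding genes. Of the 2 long members 1 had a shared region (Mef2a) and 1 had none (Mef2c), against 84.3% of genes of 100 kb or more. Both short members had one, against 60.9% of genes under 100 kb. Spans differ widely, so counts are also given per length. Mef2d had 1.25 shared regions per 10 kb of its window, Mef2b 1.21, Mef2a 0.0644 and Mef2c 0. These densities were not worked out for other genes, so whether they are high or low for their span length is not shown. Among protein-coding genes of any length, 4.06% had at least as many shared regions as the 5 of Mef2d. At least as many as the 3 of Mef2b were found at 13.6%. No test of the family against other genes was made.

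**Figure D1:**
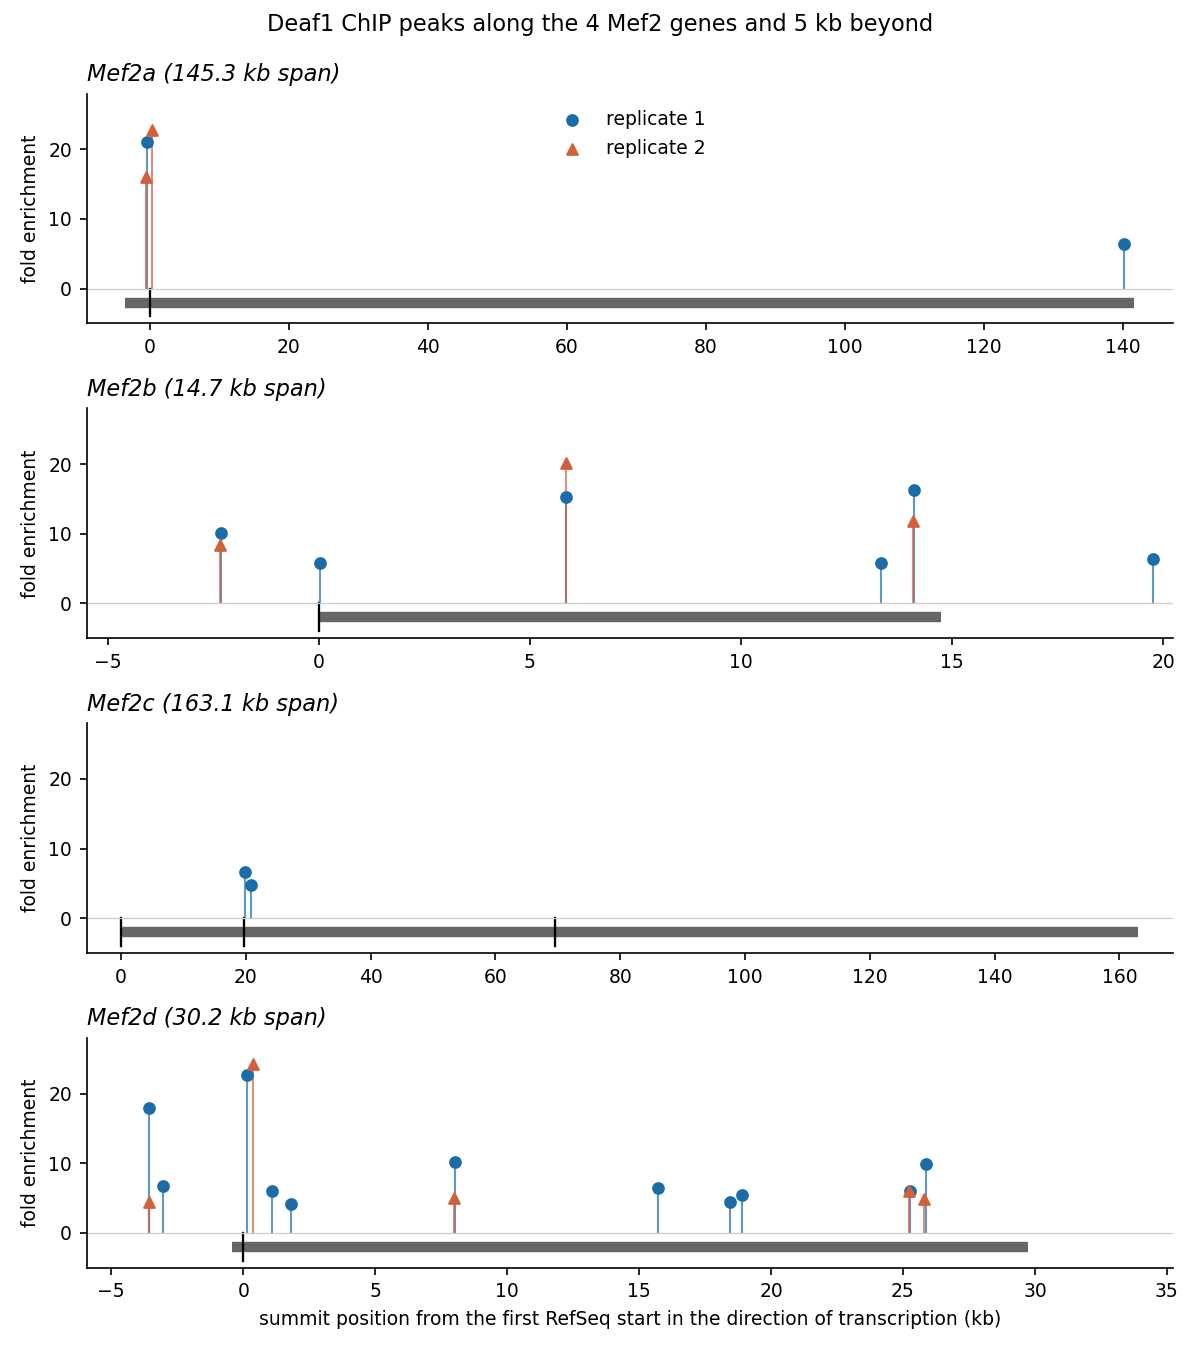
Fold enrichment of each Deaf1 peak (vertical axis) by the position of its summit in kb from the first RefSeq start (horizontal axis) for the 4 Mef2 genes. Circles are replicate 1 and triangles replicate 2, grey bars are the RefSeq spans and black ticks the RefSeq starts. Mef2a and Mef2d have their highest peaks at the start in both replicates, Mef2b has its highest peaks inside the gene and near its finish, and Mef2c has 2 low peaks of replicate 1 only.

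Mef2d, a member expressed in many tissues and spliced into a muscle form, had the highest fold of the family in both replicates. Its span covers 30151 bp of chromosome 3 (88141941 to 88172091, plus strand). The peak at its start had a fold of 22.7 in replicate 1 (q = 5.93e-86) and 24.3 in replicate 2 (q = 1.2e-84). The pileups were 81 fragments (interval 64.3 to 101) and 76 fragments (59.9 to 95.1). By fold, the replicates gave nearly the same value there. The summits lay 150 bp and 363 bp downstream of the RefSeq start, so both were on the transcribed side. The peaks were 1371 bp and 975 bp wide, and 2.14% of replicate 1 peaks and 6.69% of replicate 2 peaks were as wide or wider. The start folds of Mef2d were compared with those of the 9333 genes with a start peak in both replicates. They were higher than 82.4% of them in replicate 1 and 82.1% in replicate 2. The nearest protein-coding gene, Iqgap3, had its near end 21.6 kb away, so no other coding gene shared the peak.

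The region 3551 bp upstream of the Mef2d start differed most between the replicates. Its summit fell on the same base, 88138821, in both lists. The fold was 17.9 in replicate 1 (55 fragments, interval 41.4 to 71.6) and 4.42 in replicate 2 (13 fragments, interval 6.92 to 22.2). The intervals do not overlap, but the fragments were not scaled for depth between the replicates. The ratio of the folds was 4.04, where the median over all 22880 shared regions was 1.196. A ratio as high was seen in 0.0524% of shared regions. Counting error covers only part of the spread between libraries, and the cause of the difference was not tested.

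Inside Mef2d, 3 more regions were shared, all weaker than the start. One lay 8016 bp downstream of the start by the replicate 1 summit, with folds of 10.2 and 5.05. The other two lay near the finish, 25254 bp and 25886 bp downstream. The former had folds of 6.07 in both replicates (18 and 15 fragments), and the latter had 9.90 and 4.93. At the internal regions with unequal folds replicate 1 was the higher, with ratios of 2.02 and 2.01, which 7.93% and 8.43% of shared regions reached. The finish of Mef2d overlaps the noncoding gene 1700113A16Rik, whose near end lay 3339 bp from the last of these regions. Replicate 1 listed 6 further peaks at Mef2d that replicate 2 did not, with folds from 4.15 to 6.70.

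Mef2a, the second in the order of folds, is a long gene on the minus strand of chromosome 7 (span 67231163 to 67376456, 145294 bp). Its RefSeq start lies inside the span, 3598 bp from its outer end, since the span runs to the outermost of all transcript models. Replicate 1 had a single peak of 1596 bp across the start, with a fold of 21.1 (66 fragments, interval 51.0 to 84.0, q = 6.69e-70). In replicate 2 the same stretch held 2 peaks, with folds of 22.8 (59 fragments, interval 44.9 to 76.1, q = 8.92e-67) and 16.0 (67 fragments, interval 51.9 to 85.1). The lower fold of the latter stood over a higher local background, 3.25 fragments against 1.64. So the 2 replicate 2 summits had nearly the same number of fragments.

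The Mef2a summits stood on both sides of the start. In replicate 1 the summit lay 456 bp upstream of it, and in replicate 2 the summits lay 541 bp upstream and 340 bp downstream. The upstream summits of the replicates were thus close to each other, while the highest of each list lay 796 bp apart, as far as in 0.455% of shared regions. Peaks of both replicates reached into the printed Mef2a window, and no summit fell in it. The start folds of Mef2a were higher than those of 73.7% and 76.4% of the genes with a start peak in both replicates. No other gene had an end within 46 kb of this peak.

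The rest of the Mef2a span was nearly empty. Apart from the shared region at the start, replicate 1 listed 1 peak, with a fold of 6.39 (19 fragments), which lay 1553 bp before the finish. Replicate 2 listed none outside that region. The peaks of replicate 1 covered 1782 bp in all and those of replicate 2 covered 1208 bp.

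Mef2b, the smallest gene of the family, lies on the plus strand of chromosome 8 (span 70152761 to 70167488, 14728 bp). Its highest replicate 2 peak was internal, 5859 bp downstream of the start, with a fold of 20.1 (52 fragments, interval 38.8 to 68.2). At the same place replicate 1 had 15.3 (47 fragments, interval 34.5 to 62.5), with the summits 7 bp apart. Near the finish, replicate 1 had a fold of 16.3 (50 fragments, interval 37.1 to 65.9) and replicate 2 one of 11.8 (30 fragments, interval 20.2 to 42.8). At no other place in Mef2b did summits of both lists lie within 1 kb of a span end, and here they were 630 bp and 654 bp inside it. The replicates thus put different Mef2b peaks first, and the intervals of the 2 regions overlap within replicate 1 and within replicate 2.

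Ahead of Mef2b a shared region lay 2322 bp upstream of the start, with folds of 10.1 and 8.34. It fell in the gap between Mef2b and Borcs8, a gene of lysosome positioning whose near end lies 1795 bp from the summits. At the Mef2b start itself replicate 1 had a peak of fold 5.75 (17 fragments, interval 9.90 to 27.2, q = 4.03e-09) with its summit 20 bp downstream of the start, and replicate 2 listed none. Another replicate 1 peak of the same fold lay 13325 bp downstream. All of these peaks also lie in the span of Gm45929, a coding gene model that covers both Borcs8 and Mef2b. A further replicate 1 peak, of fold 6.39, reached into the 5 kb window only with its edge. Its summit lay outside the window, just inside the near end of the neighbour Tmem161a.

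Mef2c, a factor that skeletal muscle needs for its sarcomeres, spans 163063 bp of chromosome 13 (83504017 to 83667079, plus strand) and has 3 RefSeq starts in the promoter table. At the first and the third start neither replicate had a summit within 1 kb. By the second, replicate 1 had a peak 208 bp downstream, with a fold of 6.59 (20 fragments, interval 12.2 to 30.9, q = 8.92e-12), and another 1147 bp downstream with 4.72 (14 fragments). Replicate 2 listed no peak in the whole window of 173063 bp. This does not put replicate 2 at 0: over its lowest background, the weakest listed replicate 2 peak had 7 fragments and a fold of 3.03.

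Replicate 2 rarely listed a partner for peaks as weak as those of Mef2c. Of all 7147 replicate 1 peaks with a fold from 6 to 7, 16.4% had one, and of the 14189 from 4 to 5 it was 3.88%. Of the 4409 peaks with a fold from 15 to 20, 99.8% had one. The 12 member peaks of replicate 1 without a partner had folds from 4.15 to 6.70, and the 9 with a partner had folds from 6.07 to 22.7. So the peaks of Mef2c, the start of Mef2b and the weak ones in Mef2d lie in a range where the lists seldom share peaks.

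**Figure D2:**
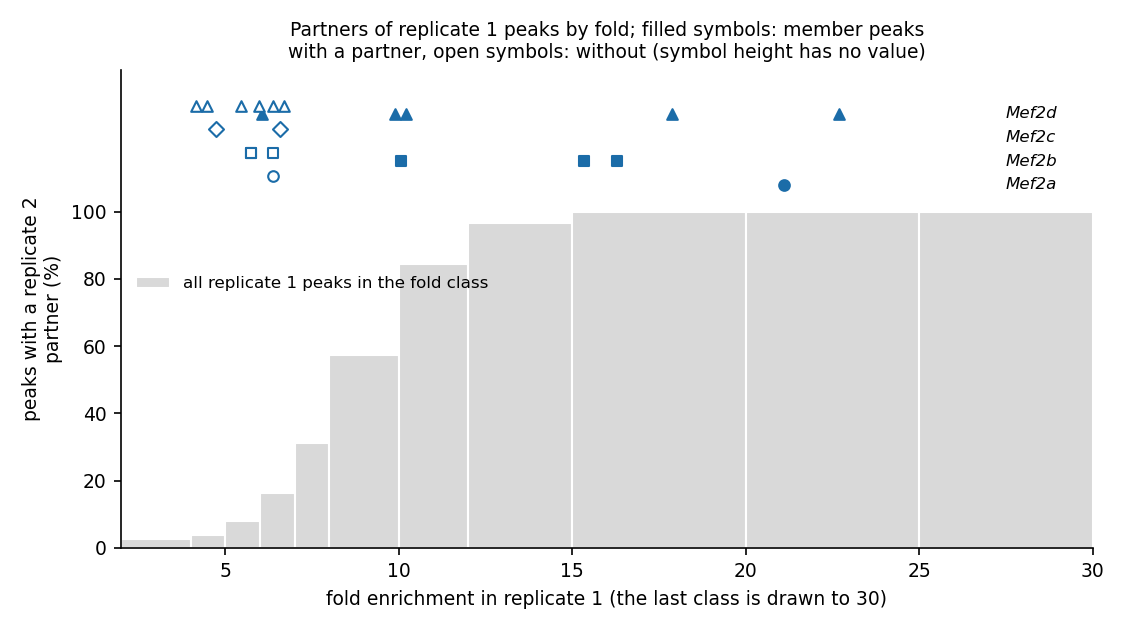
Share of all replicate 1 peaks that overlap a replicate 2 peak (vertical axis, percent) by their fold in replicate 1 (horizontal axis), with the 21 member peaks of replicate 1 set above the bars. Filled symbols have a partner and open symbols have none, and 2 open Mef2b symbols coincide at 5.75. The open symbols lie between 4.15 and 6.70, where few peaks of any gene had a partner.

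By the highest fold of each gene, the order was Mef2d, Mef2a, Mef2b and Mef2c in replicate 1. Replicate 2 gave the same order, with Mef2c not listed. At these highest-fold peaks the counting intervals of Mef2d and Mef2a overlapped in both replicates, and so did those of Mef2a and Mef2b. Overlap does not show that these neighbours in the order are equal, and their difference was not tested. The intervals are for fragments, while the order is by fold, which also depends on the local background. The replicate 1 interval of Mef2c, 12.2 to 30.9 fragments, lay below that of the highest Mef2b peak, 37.1 to 65.9. Of the member peaks, 14 of 21 in replicate 1 and 6 of 10 in replicate 2 stood over the lowest background of their list, 2.13 and 1.64 fragments. The highest background at a member was 2.67 fragments in replicate 1 and 3.25 in replicate 2.

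**Figure D3:**
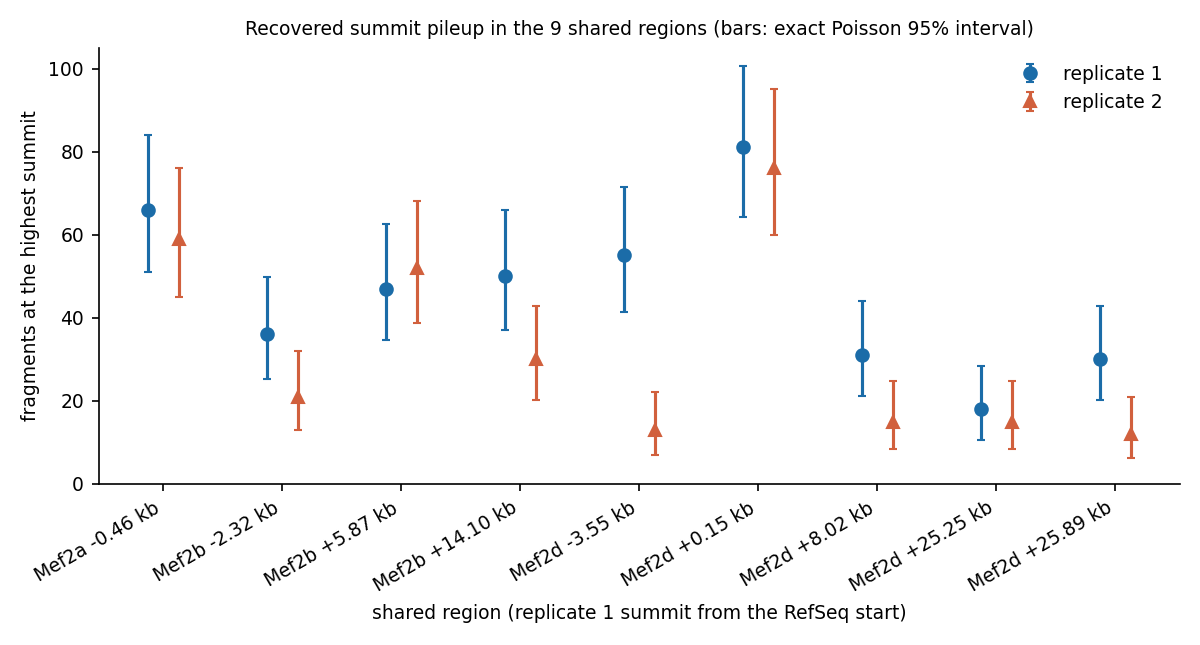
Recovered number of fragments at the highest summit (vertical axis) in the 9 shared regions of Mef2a, Mef2b and Mef2d, named by the distance of the replicate 1 summit from the RefSeq start. Bars are exact Poisson 95% intervals, for counting error only, and the fragments were not scaled for depth between the replicates. At the starts of Mef2a and Mef2d the intervals of the replicates overlap, and at the upstream region of Mef2d (55 against 13 fragments) they do not.

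Whether a member counts as occupied at an end depended on how the end was defined. With the ends of the RefSeq span and a window of 1 kb, 2 of 4 members were occupied in both replicates, Mef2b and Mef2d, against 51.6% of protein-coding genes. The Mef2b call came from its finish. With the RefSeq starts, a rule added after the data were seen, it was again 2 of 4, now Mef2a and Mef2d, against 54.0% of the 17274 coding genes with a start in the table. In replicate 1 alone a summit lay within 1 kb of a start of all 4 members, against 63.1% of those genes. The counts of 2 of 4 are near their background, and no count over 4 genes was tested. Where the 9 regions lay, 1 was at the start end of a span and 1 at the finish end, 5 were internal (the Mef2a start among them, because its span reaches further out) and 2 were in the upstream flank. The table of spans holds no exons, so internal regions could not be assigned to exons or introns.

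The genes most like each member by the folds of the strongest end peak in the 2 samples were as follows. Arcn1 and Bmper, each with folds of 22.7 and 24.3, were nearest to Mef2d. Gabre and Igf2bp3 had the same folds as the finish of Mef2b, 16.3 and 11.8. By the start rule, Acsl4 and Sucla2, with 21.1 and 22.8, were nearest to Mef2a. Likeness over 2 values is shared by many genes, and nothing about function is meant by it.

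The 3 gene lists below were chosen with earlier results of these data known. The first holds regulators, the genes that control MEF2 activity. Of 24 regulators 16 (66.7%) had a peak of both replicates within 1 kb of a span end, with median folds of 22.0 and 22.9, against 51.6% and medians of 16.5 and 15.2 over all coding genes. A fold of a listed gene is its highest within 1 kb of the end in that replicate, so the replicates can give different summits. By the start rule it was 16 of the 18 with a start in the table, or 88.9%, against 54.0%. By the mean log2 fold over both replicates, which ranks the genes of each list here, the highest was Camk2g, a calcium/calmodulin-dependent kinase gene, with folds of 26.2 and 32.6, and the window holds a peak that the gene shares with Ndst2. Map2k3, which encodes a kinase that activates p38 MAP kinases, had 22.1 and 29.6. Mapk14, which encodes the p38 kinase that phosphorylates MEF2 factors, had 23.6 and 27.3, and Slc26a8 lies within reach of a peak there. No peak of either replicate lay within 1 kb of a span end at 5 regulators, among them Hdac9, Map2k6 and Map2k5. Map2k5 had start folds of 16.6 and 23.0, and Map2k6 had a start peak in replicate 1 only, with a fold of 8.62.

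The class IIa deacetylases that repress MEF2 factors were singled out after their values were seen. At their starts Hdac7 had folds of 29.5 and 26.4, Hdac4 had 21.3 and 27.7, and Hdac5 had 23.0 and 23.1. By the main rule of span ends Hdac5 was occupied, while Hdac4 and Hdac7 were not. Hdac9 had no summit within 1 kb of its start in either replicate and 1 shared region in its window.

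Of the 24 partner and cofactor genes 20 (83.3%) were occupied at a span end, against 51.6% of all coding genes, with median folds of 19.2 and 20.2 against 16.5 and 15.2. By the start rule it was 14 of 15, or 93.3%, against 54.0%. By the mean log2 fold over both replicates the highest was Ncoa2, a steroid receptor coactivator gene, with folds of 30.3 and 32.2. Next came Smad3, a mediator of TGF-beta signals, with 26.2 and 27.3, and Kat2b, an acetyltransferase gene, with 22.0 and 27.3. No gene of the list was without a peak of at least 1 replicate at an end. Among the myogenic factors, which bind DNA beside MEF2 proteins and were singled out after their values were seen, Myod1 had 17.6 and 14.8, Myog had 11.8 and 6.45 and Myf5 had 5.69 and 5.31, while Myf6 was not occupied. Srf, the gene of a related MADS-box factor, was also singled out afterwards. It had folds of 13.4 and 11.8 at its span end, where Cul9 is within reach, and start folds of 25.1 and 32.6.

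Known MEF2 target genes were occupied about as often as all genes. It was 14 of 24 (58.3%) at a span end and 10 of 19 (52.6%) at a start, against 51.6% and 54.0%. Their median folds of 12.3 and 7.59 at span ends stood beside 16.5 and 15.2 for all occupied coding genes. By the start rule the medians were 15.1 and 12.9, beside 16.8 and 15.5. By the mean log2 fold over both replicates the highest were the immediate early receptor gene Nr4a1, with folds of 29.4 and 26.3, Klf2, a Krüppel-like factor gene, with 19.8 and 22.8, and Ppargc1a, the coactivator gene of mitochondrial biogenesis, with 21.1 and 18.96. The desmin gene Des, next in that order, had 22.0 and 17.4. Ppargc1a had its peak at a span end and none at the start in the table. No peak of either replicate lay within 1 kb of an end at 5 targets, among them Myh7, Xirp2 and Srpk3. Of these named genes Srpk3 had a start peak in replicate 1 only, with a fold of 5.04. The 3 lists were not tested against each other or against all genes.

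**Figure D4:**
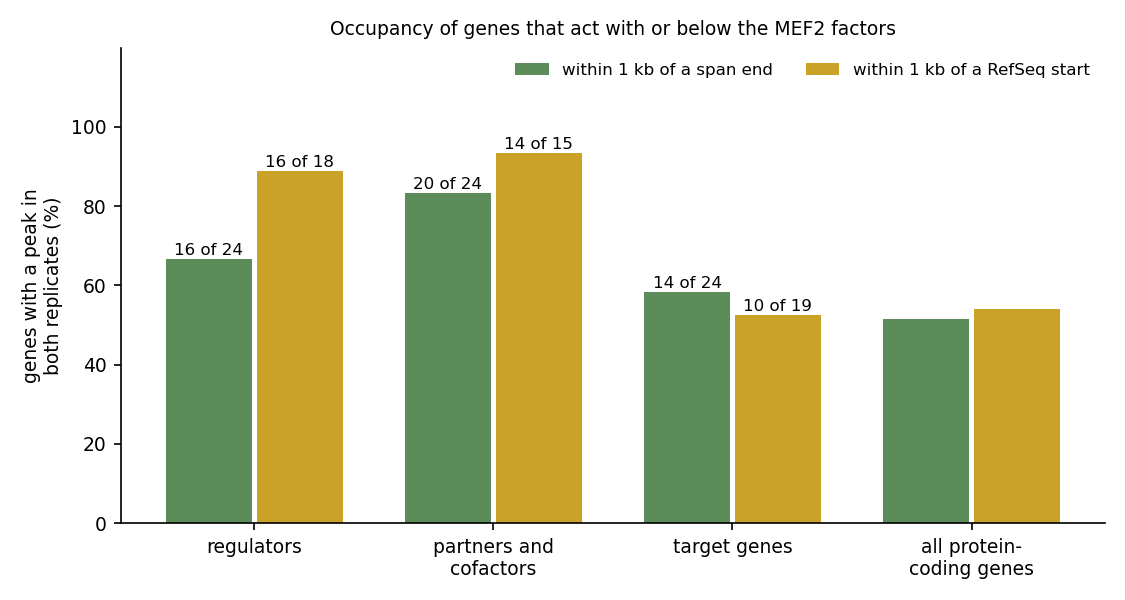
Share of genes with a Deaf1 peak of both replicates (vertical axis, percent) within 1 kb of a RefSeq span end (green) or of a RefSeq start (yellow) for 24 regulators, 24 partners and cofactors and 24 target genes of MEF2 factors, and for all protein-coding genes. Numbers above the bars are genes occupied of genes with an entry. Regulators and partners stand above the bars of all genes, and target genes stand near them.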

How the data were processed

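Deaf1 ChIP-seq peak lists of 2 replicates were used. The authors deposited 1 list per replicate, so peaks were called per sample. The tools named are BWA and MACS2 and the build is mm10, per the submitters' processing notes. Their versions, settings and the control of the peak calls were not given in the sources used here. Fold, a ratio, and the −log10 p and −log10 q are the authors' deposited values. The deposited score was not used. Positions were converted to 1-based coordinates.

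Gene spans came from RefSeq's GRCm38.p6 table. Starts and sequences came from RefSeq promoter windows of the same assembly, which held all 4 members. Shared regions were blocks of peaks of both lists overlapping by 1 bp or more. Occupied genes had summits of both lists at most 1 kb from 1 and the same span end. Pileup n and background b were solved from fold = (n + 1)/(b + 1) and the Poisson probability of more than n. The largest misfit in −log10 p was 4.07e-05, and the method was tested on simulated data. Python 3.11.15, pandas 2.3.3 and scipy 1.17.1 were used. Members and lists were chosen with earlier results of these data known. The text names all members, genes within 1 kb of a member peak or holding it, the 3 highest genes of each list, up to 3 genes per list without an end peak, and the 2 genes most alike to each member. The myogenic factors, the class IIa deacetylases, Srf and Des were named after their values were seen. Whether the replicates were grown separately is not in the labels, and their spread may therefore be technical only. Alternatives changed the window, the flank, the overlap, thresholds of fold and q, the list length and the replicates.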

Additional observations from a re-analysis of the deposited data

How the results depend on the processing

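No paired analysis was possible because peak lists were used for the ChIP samples alone, and the inputs that carry the same replicate numbers were not analysed here. Of 92 values under alternatives 82 stayed close to the main value (a count within 1.5 times, a fold within the SD of the replicates) and 10 moved. A single replicate always lies within that SD of the mean of both, so its folds could not count as moved. In the other settings the folds still found kept the main value. A fold no longer found at an end was left out, and a count can stay the same while its members change. Internal regions of the 4 genes ran from 6 to 14 over the single replicates and flank regions from 2 to 4, the higher values with replicate 1 alone. Flank regions fell to 1 with a fold of 5 or more or a −log10 q of 5 or more, where the upstream region of Mef2d was lost, and to 0 with no flank. With a 500 bp end window 0 members were occupied at a span end and 0 regions counted as ends. With a 5 kb end window 7 regions counted as ends, 2 as internal and 0 as flank, and 3 members were occupied, Mef2a now among them. Starts in place of span ends, added after seeing the data, gave 2 members, Mef2a in place of Mef2b. Mef2a and Mef2c had no end fold in the main setting, so no alternative could be set against it. The 2 Mef2c peaks of replicate 1 held 20 and 14 fragments, and whether more reads would list them in replicate 2 was not tested.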
